A study of Homo sapiens with 6 samples.

Results

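PRDM1 (also called BLIMP1) and BCL6 encode zinc-finger transcriptional repressors, and both were measured in mammary epithelial cells with and without reduction of the tyrosine phosphatase SHP2. These 2 genes, of 18377 tested, were chosen by their measured values on the same 6 arrays, since PRDM1 was lower and BCL6 higher with SHP2 miRs than with the control miR. Their differences from control are therefore given as a description, with no test. Each gene had 1 probe set whose only symbol was that gene, 8121257 for PRDM1 and 8092691 for BCL6, so both members are accounted for and no choice between probe sets was needed.

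The cells were MCF10A-HER2/3, derived from the non-tumorigenic human mammary epithelial line MCF10A. They carried a lentiviral vector from which doxycycline induces a CTRL miR, SHP2 miR1 or SHP2 miR2, and grew in three-dimensional culture for 15 days with EGF, insulin, cholera toxin, hydrocortisone and horse serum. Every group, controls included, received doxycycline from the day after seeding, renewed every 2 days. The 3 groups had 2 Affymetrix HuGene-1_0-st-v1 arrays each, and no label says whether the replicates came from different cultures. The p-values therefore reflect the array-to-array spread alone, which could be technical.

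PRDM1 carries a PR domain and BCL6 a BTB/POZ domain, and both bind DNA through zinc fingers and recruit corepressors. In B lymphocytes each is known to repress the gene of the other: BCL6 holds germinal centre cells in place, and PRDM1 drives their differentiation into plasma cells. Outside lymphocytes, PRDM1 is known for its part in terminal differentiation of epidermal keratinocytes, and BCL6 for restraining differentiation of mammary epithelium. BCL6 is also known to repress its own gene through sites at its first exon.

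The sequences before the annotated starts of both genes are shown because BCL6 and PRDM1 are known to act on each other's genes. They come from RefSeq on GRCh38.p14, which lists 2 starts for each gene in its promoter table. The build behind the arrays' annotation is not given in the sources used here. Each line gives the 250 bases before a start, 5′ to 3′ on the strand of the gene. Capitals mark matches to 4 motifs searched on both strands: GNGAAAG for PRDM1, TTCNNNGAA for BCL6 and STAT factors, TGANTCA for AP-1 and GTAAACA for FOXO. In the third line the final capitals are the part before the start of a match that runs across it.
PRDM1 start 1, chr6:106086086-106086335, plus strand: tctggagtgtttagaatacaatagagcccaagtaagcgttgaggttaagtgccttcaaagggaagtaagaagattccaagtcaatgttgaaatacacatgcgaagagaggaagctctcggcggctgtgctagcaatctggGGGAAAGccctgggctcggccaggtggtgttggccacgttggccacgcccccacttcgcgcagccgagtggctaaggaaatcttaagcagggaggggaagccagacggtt
PRDM1 start 2, chr6:106098691-106098940, plus strand: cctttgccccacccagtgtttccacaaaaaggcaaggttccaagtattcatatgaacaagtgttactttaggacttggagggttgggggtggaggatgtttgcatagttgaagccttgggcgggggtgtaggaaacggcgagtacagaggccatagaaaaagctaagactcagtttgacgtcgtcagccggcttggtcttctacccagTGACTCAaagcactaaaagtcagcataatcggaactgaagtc
BCL6 start 1, chr3:187745469-187745718, minus strand: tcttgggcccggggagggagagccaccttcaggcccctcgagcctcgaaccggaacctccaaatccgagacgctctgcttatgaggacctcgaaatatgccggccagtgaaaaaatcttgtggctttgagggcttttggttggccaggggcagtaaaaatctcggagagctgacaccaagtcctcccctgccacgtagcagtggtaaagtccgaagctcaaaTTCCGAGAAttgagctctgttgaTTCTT
BCL6 start 2, chr3:187736502-187736751, minus strand: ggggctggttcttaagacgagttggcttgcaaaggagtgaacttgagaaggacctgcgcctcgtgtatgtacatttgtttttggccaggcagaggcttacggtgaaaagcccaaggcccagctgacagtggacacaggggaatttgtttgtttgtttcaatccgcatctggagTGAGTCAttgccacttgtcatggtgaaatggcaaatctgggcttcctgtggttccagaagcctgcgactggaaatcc

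The windows searched ran from 250 bases before each start to 50 bases from it onward. BCL6 start 1 held 4 matches to TTCNNNGAA, a motif that BCL6 and STAT factors share. Counted with the first transcribed base as 1, they lay at bases -28 to -20, -5 to 4, 11 to 19 and 37 to 45. The last 3 matches are shown in short windows, from base -10 to 20 and from base 21 to 50.
BCL6 start 1, chr3:187745449-187745478, minus strand: gttgaTTCTTAGAActggggTTCTTAGAAg
BCL6 start 1, chr3:187745419-187745448, minus strand: tggtgatgcaagaagtTTCTAGGAAaggcc
Of 34796 distinct promoter windows of that length, 7.67% held at least 1 match to TTCNNNGAA and 16 (0.046%) held 3 or more. Neither PRDM1 window held one. PRDM1 start 1 held 1 match to GNGAAAG, at bases -110 to -104, which 22.8% of windows hold. PRDM1 start 2 and BCL6 start 2 each held 1 match to TGANTCA, at bases -42 to -36 and -77 to -71, which 7.73% of windows hold. None of the 4 windows held GTAAACA, found in 3.42% of windows. No matches overlapped. A match is a description of these letters and not evidence of a site in use, and no binding was measured here.

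Array medians lay between 5.23 and 5.35 on the log2 scale, and replicates correlated at r = 0.985 to 0.986 across genes. PTPN11, the gene of SHP2, was lower on all 4 SHP2 miR arrays (5.71 to 7.28) than on both controls (7.96 and 8.44). All 9 measured markers of basal-like mammary epithelium lay above the 40th percentile of probe sets, 4.76. Of these 9, KRT14 rose by 1.10 (adjusted p = 0.00440) and LAMB3 fell by 1.07 (adjusted p = 0.00314), and their summed linear level was 11514 to 11807 in control, 11531 to 11839 with SHP2 miR1 and 12287 to 13388 with SHP2 miR2. Of 10 B and plasma cell markers and 9 T cell and pan-leukocyte markers, 3 each lay above it, and no group mean of theirs was above 5.78. Their summed linear levels were 168 to 206 and 197 to 212 in control, 218 to 233 and 241 to 263 with SHP2 miR1, and 184 to 203 and 217 to 225 with SHP2 miR2, and 0 of these 19 passed the test between groups. The summed level of 7 myeloid markers was 1032 to 1078 in control, 772 to 910 with SHP2 miR1 and 932 to 1138 with SHP2 miR2. CD68 was the highest of these myeloid markers in every group. With SHP2 miR1, CD68 differed from control by -0.71 (limma adjusted p = 0.0272) and CSF1R by -1.08, while CD14 differed by 1.08. The median difference of the myeloid list was 0.26 there, so the list as a whole did not share the lower sum. For 12 fibroblast and endothelial markers the summed level was 750 to 768, 673 to 685 and 762 to 777. Of these, 4 myeloid and 7 fibroblast and endothelial markers lay above the 40th percentile of probe sets. In these lists, averaged over both SHP2 miRs, CSF1R fell by 0.75, TEK fell by 1.38 and PECAM1 rose by 0.60. Each passed the limma test. CD14 had the largest difference of the myeloid markers, a rise of 0.96, and did not pass (limma adjusted p = 0.0505). The median difference was 0.15 for the myeloid markers and 0.06 for the fibroblast and endothelial markers. A part of other cell types in the results was not tested. On such arrays fewer cells of a type and less RNA per cell cannot be told apart.

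In control, PRDM1 had log2 values of 8.0 and 8.35. SHP2 miR1 arrays gave 5.39 and 5.05, and SHP2 miR2 arrays 6.65 and 6.49. Every SHP2 miR array lay below both controls, the closest by 1.35, and the groups did not overlap. The group means were 8.17 ± 0.25, 5.22 ± 0.25 and 6.57 ± 0.11 (log2, mean ± SD, n = 2 each). The mean of both SHP2 miR groups differed from control by -2.28 (SE 0.16, 4.86-fold lower), the third largest decrease among all genes tested. It was -2.95 with SHP2 miR1 (7.75-fold lower) and -1.61 with SHP2 miR2 (3.05-fold lower), both against the same controls.

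In control, BCL6 had log2 values of 5.89 and 6.50. SHP2 miR1 arrays gave 7.45 and 7.45, and SHP2 miR2 arrays 7.27 and 7.17. All 4 SHP2 miR arrays lay above both controls, the closest by 0.68. The group means were 6.19 ± 0.43, 7.45 ± 0.00 and 7.22 ± 0.07 (log2, mean ± SD, n = 2 each). The widest gap between replicates, 0.61, was between the controls. The average difference was 1.15 (SE 0.17, 2.21-fold higher), at place 48 among increases. It was 1.26 with SHP2 miR1 (2.40-fold) and 1.03 with SHP2 miR2 (2.04-fold). Dropping the first control array gave 0.84, and dropping the second gave 1.45. Among all 18377 genes, 12.6% lay above both controls on all 4 arrays and 13.6% below them. The choice of members fixed on which side PRDM1 and BCL6 lie.

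**Figure D1:**
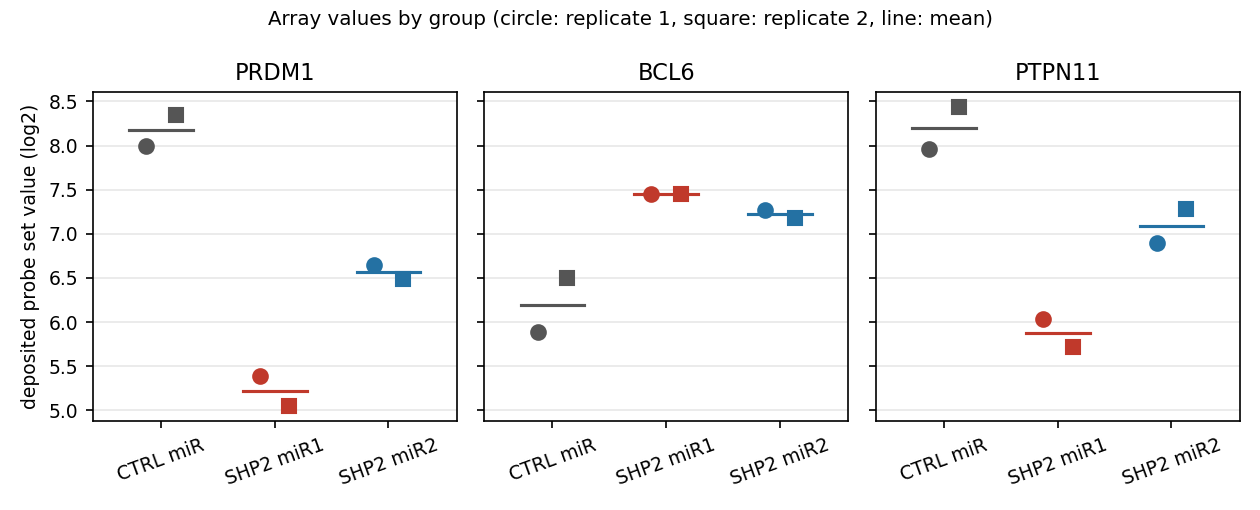
Deposited log2 probe set values (vertical axis) of PRDM1, BCL6 and PTPN11 in each group (horizontal axis); circles are replicate 1, squares replicate 2 and lines the mean of the 2 arrays. PRDM1 is at 8.17 in control, 6.57 with SHP2 miR2 and 5.22 with SHP2 miR1, and BCL6 is at 6.19, 7.22 and 7.45 in that order.

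The SHP2 miRs could be compared with each other, since the members were selected on the difference from control. PRDM1 was higher with SHP2 miR2 than with SHP2 miR1 by 1.35 (SE 0.19, 95% interval 0.92 to 1.77, adjusted p = 0.0379). Over all genes, 0.190% passed that comparison. The call did not hold with any array left out, where adjusted p ranged from 0.0662 to 0.217. A block for the replicate number ended it too (adjusted p = 0.0763), as did a fit of the SHP2 miR arrays alone (0.0789). The difference itself stayed between 1.17 and 1.52 with an array left out. The order of PRDM1 levels, control above SHP2 miR2 above SHP2 miR1, was also that of PTPN11, at 8.20, 7.09 and 5.88. The choice of PRDM1 fixed control as its highest group. Genes such as AQP9, SPINK6 and DUSP5 had this order too, and its share among all genes was not counted. The difference of PTPN11 between the SHP2 miRs was 1.21 (95% interval 0.73 to 1.70, adjusted p = 0.0645).

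BCL6 differed by -0.23 between SHP2 miR2 and SHP2 miR1 (SE 0.20, 95% interval -0.69 to 0.23, adjusted p = 0.567). The arrays of the SHP2 miRs did not overlap in BCL6, but the share of all genes that separate so was not counted. The 95% interval of the BCL6 difference included 0. Relative to the SHP2 miR1 difference from control, that of SHP2 miR2 was 54.4% for PRDM1, 47.7% for PTPN11 and 81.8% for BCL6. These shares rest on the same control arrays, and a difference between them was not tested. Within groups, opposite levels of PRDM1 and BCL6 were not seen on every pair of replicates. In control, replicate 2 was higher than replicate 1 in both genes, by 0.35 and 0.61. With SHP2 miR2, replicate 2 was lower in both, by 0.16 and 0.10. With SHP2 miR1, replicate 2 was lower in PRDM1 by 0.35, and BCL6 differed by 0.00.

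The genes whose profile over the 6 arrays was most like PRDM1 were found by the root-mean-square difference of log2 values after each gene's mean was subtracted. They were GABRA2, a GABA receptor subunit (0.21), the water and solute channel AQP9 (0.26), the protease inhibitor SPINK6 (0.26), the ecto-nucleotidase NT5E (0.26) and SPRY4, an inhibitor of receptor tyrosine kinase signalling (0.28). All have their lowest values with SHP2 miR1. GABRA2 had 7.58 and 7.75 in control, 4.65 and 4.54 on the SHP2 miR1 arrays and 6.45 and 6.33 on the SHP2 miR2 arrays. NT5E had 10.53 and 10.63, 7.44 and 7.40, and 9.44 and 9.25.

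Most like BCL6 were CXADR, an adhesion protein of epithelial junctions (0.09), the tetraspanin TSPAN1 (0.11), TMT1A (0.11), RIPOR2 (0.12) and GBP2, an interferon-induced GTPase (0.12). SHP2 miR2 differed from SHP2 miR1 by -0.05 in GBP2, -0.24 in TSPAN1, -0.26 in CXADR, -0.40 in TMT1A and -0.43 in RIPOR2. CXADR had 5.17 and 5.55 in control, 6.66 and 6.78 on the SHP2 miR1 arrays and 6.44 and 6.48 on the SHP2 miR2 arrays. GBP2 had 4.53 and 4.94, 5.89 and 5.72, and 5.74 and 5.77. In both CXADR and GBP2, as in BCL6, the lowest array was control replicate 1. These genes were picked for their likeness, so they get no test.

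**Figure D2:**
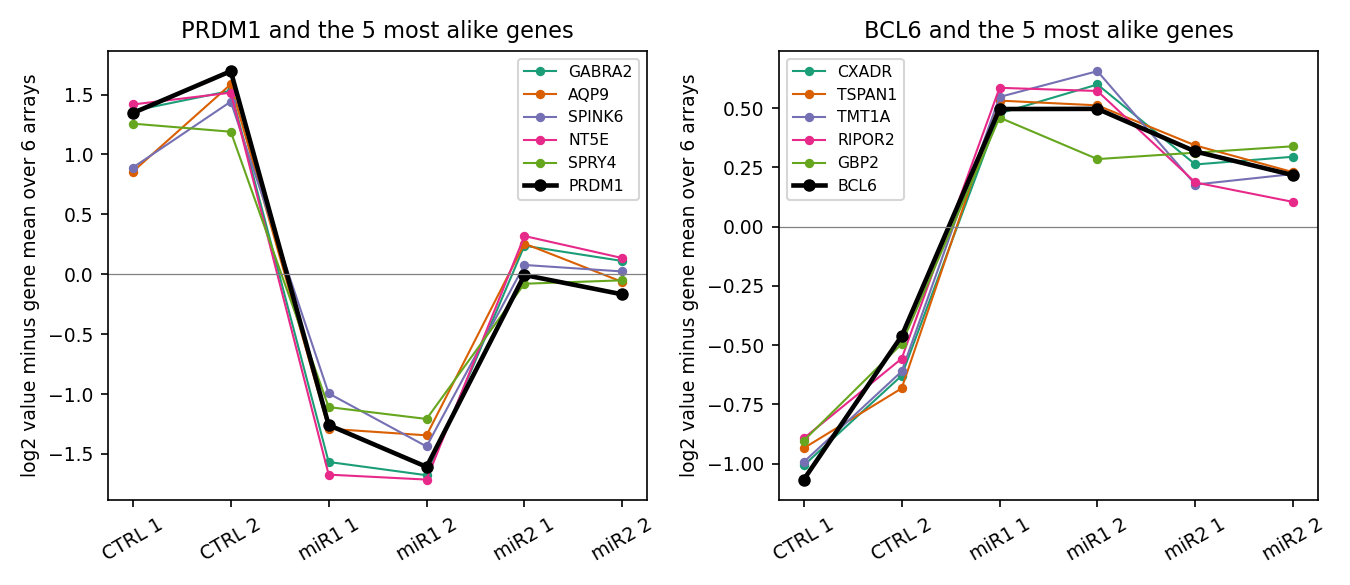
Log2 values minus each gene's mean over the 6 arrays (vertical axis) on each array (horizontal axis) for PRDM1 and BCL6 in black and the 5 most alike genes of each in colour; lines only join the points of a gene, and the vertical scales differ between panels. Genes like PRDM1 dip lowest with SHP2 miR1, and genes like BCL6 are on one side of the mean in both controls and on the other with both SHP2 miRs.

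Which other genes of the PRDM1-BCL6 circuit differed was asked of 9 lists with 172 measured genes in all, PRDM1 and BCL6 left out. Averaged over both SHP2 miRs, 13 of the 172 passed the limma test (7.56%), 8 higher and 5 lower, with a median difference of 0.04. Over all genes 4.20% passed, 1.53% higher and 2.67% lower, with a median of 0.02, and 20.9% had an unadjusted p under 0.05. Of the 13, 6 were among the 22 epidermal differentiation genes (27.3%), and 7 among the other 150 (4.67%), a share near that of all genes. With SHP2 miR1 alone 19 of the 172 passed (11.0%, against 8.60% of all genes), and with SHP2 miR2 alone 3 passed (1.74%, against 0.370%). The count of 13 rested on several arrays: leaving out either control array gave 3, and it was 8 without either SHP2 miR1 array. Of these 13 average differences, those of KRT10, CASP14 and LTF passed under all alternatives run.

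Both members belong to families of related zinc-finger proteins. Among 14 other PRDM genes 0 passed the limma test (0 at an unadjusted p under 0.05, against 20.9% of all genes), with a median of 0.01 and values from -0.38 for PRDM10 to 0.36 for MECOM (adjusted p = 0.291 and 0.274). No PRDM gene passed with SHP2 miR1 or SHP2 miR2 alone either. Among 23 other BTB zinc-finger genes 1 passed (4.35%, against 4.20% of all genes). That gene, ZBTB16, the PLZF repressor, rose by 0.61 (SE 0.13, adjusted p = 0.0360). Its values were 7.88 and 7.86 in control, 8.39 and 8.43 on the SHP2 miR1 arrays and 8.43 and 8.64 on the SHP2 miR2 arrays, so the SHP2 miR arrays lay above both controls. The ZBTB16 call was lost on removal of any of the 6 arrays, at adjusted p-values of up to 0.265. BCL6B, the closest relative of BCL6, had -0.13 (adjusted p = 0.629).

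Corepressors and chromatin enzymes that act with the members showed 0 calls in 21 genes, with a median of -0.13. At an unadjusted p under 0.05 there were 6 of the 21, a larger share than the 20.9% of all genes. The histone deacetylase genes HDAC2 and HDAC5 had the smallest p, at -0.45 (adjusted p = 0.142) and 0.40 (adjusted p = 0.160). BCOR, a BCL6 corepressor, had -0.33, and TLE4, a Groucho family corepressor, had 0.40, and neither passed.

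Of 25 genes reported to act upstream of PRDM1, 2 rose and 2 fell (16% passed, against 4.20% of all genes). The list median was 0.01. FOSL1 and JUN, subunits of AP-1, a factor known to induce PRDM1, fell by 0.64 (SE 0.13, adjusted p = 0.0304) and 0.68 (SE 0.13, adjusted p = 0.0250). FOSL1 had 8.28 and 8.09 in control, 7.58 and 7.48 on the SHP2 miR1 arrays and 7.60 and 7.51 on the SHP2 miR2 arrays. JUN had 7.48 and 7.58, 6.91 and 6.85, and 6.93 and 6.69. Both lay below both controls on all 4 arrays, at nearly the same level with either SHP2 miR, unlike PRDM1 in value. A difference between these genes and PRDM1 was not tested. Other AP-1 genes did not pass, with -0.38 for JUNB, -0.17 for FOS, 0.37 for FOSL2 and 0.11 for JUND.

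LIFR, the LIF receptor, rose by 0.88 (SE 0.15, adjusted p = 0.0133), and the receptor NOTCH1 rose by 0.80 (SE 0.14, adjusted p = 0.0167). LIFR was at 4.61 and 4.61 in control, near the 40th percentile of probe sets, and at 5.15 to 5.73 on the SHP2 miR arrays. IRF4, a lymphoid inducer of PRDM1, had a difference of 0.01 and lay between 4.28 and 4.81 on all arrays. Without either control, LIFR and NOTCH1 missed the threshold at up to 0.149 and 0.143. FOSL1 and JUN also missed it without at least 3 of the SHP2 miR arrays, at up to 0.138 and 0.238 over all arrays left out, and FOSL1 with quantile normalization (adjusted p = 0.0563).

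Upstream of BCL6, 0 of 16 genes passed, with a median of 0.02. At an unadjusted p under 0.05 there were 6 of the 16, a larger share than the 20.9% of all genes. STAT3, a cytokine-activated factor known to induce BCL6, had the smallest p, at 0.51 (SE 0.13, adjusted p = 0.0633), and it is also listed upstream of PRDM1. Its values were 9.04 and 9.06 in control, 9.61 and 9.62 on the SHP2 miR1 arrays and 9.61 and 9.41 on the SHP2 miR2 arrays. All 4 SHP2 miR arrays lay above both controls. FBXO11, a subunit of the ubiquitin ligase that marks BCL6 for degradation, had -0.67 (adjusted p = 0.0893). The FOXO factors, which are known to induce BCL6, had 0.55 for FOXO3 (adjusted p = 0.145), 0.14 for FOXO4 and 0.00 for FOXO1. With SHP2 miR1 alone, where 8.60% of all genes passed, STAT3 and NFE2L3 rose (0.56 and 0.98) and FBXO11 fell by 0.98.

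Genes reported as repressed by PRDM1 showed 0 calls among 19, with a median of 0.05. At an unadjusted p under 0.05 there were 3 of the 19, a smaller share than the 20.9% of all genes. The smallest p-values were those of ODC1, an enzyme of polyamine synthesis, at 0.48 (adjusted p = 0.0791) and of the T cell costimulator CD86 at 0.49 (adjusted p = 0.105). With SHP2 miR1 alone, where 8.60% of all genes passed, CD86 rose by 0.66 (adjusted p = 0.0456), the only call in this list. CD86 lay between 2.87 and 3.73 on all arrays, below the level of 4.76 that marks dim genes here. MYC had -0.05, with 9.44 and 9.63 in control and 9.32 to 9.70 on the SHP2 miR arrays, so its groups overlapped. The lymphoid genes CIITA, PAX5 and SPIB had -0.06, 0.18 and -0.04.

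Of 27 other genes reported as repressed by BCL6, 3 fell (11.1%, against 2.67% of all genes in this direction) and 0 rose. The list median was 0.06. DUSP5, an ERK phosphatase, fell by 0.84 (SE 0.13, adjusted p = 0.0111), the receptor NOTCH2 by 0.65 (SE 0.13, adjusted p = 0.0262) and JUN as above. DUSP5 had 7.51 and 7.29 in control, 6.52 and 6.34 on the SHP2 miR1 arrays and 6.71 and 6.69 on the SHP2 miR2 arrays. The cell cycle genes CCND2, CDKN1A and CDKN1B had 0.15, -0.08 and 0.41, and BCL2L1, a survival gene, had -0.49, and none of these 4 passed on average. With SHP2 miR1 alone, where 8.60% of all genes passed, 1 gene of the list rose and 4 fell. The chemokine receptor CXCR4 rose by 0.81 (adjusted p = 0.0171), and BCL2L1 fell by 0.81 (adjusted p = 0.0143) besides DUSP5, JUN and NOTCH2. Without control replicate 1 DUSP5 had an adjusted p of 0.0847 and without control replicate 2 of 0.0743. The NOTCH2 call was lost on removal of any of the 6 arrays, at up to 0.239.

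**Figure D3:**
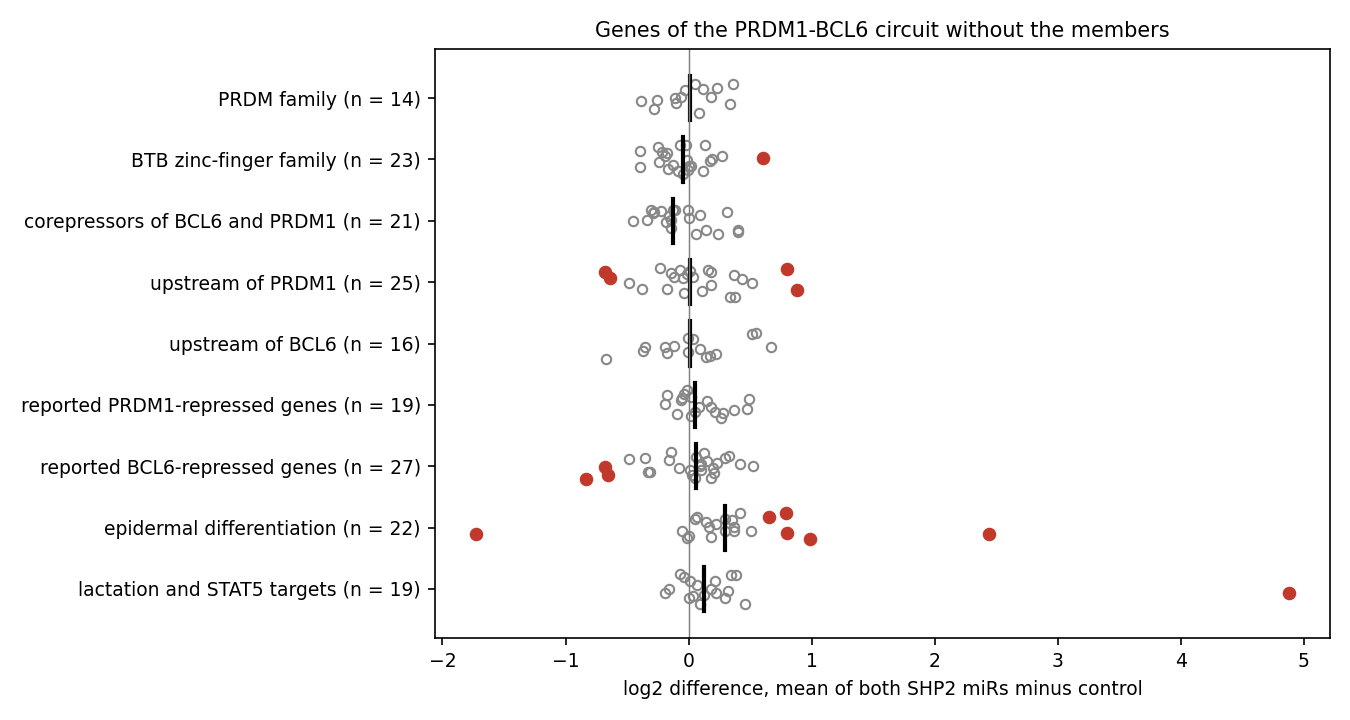
Each point is a gene of a list, without PRDM1 and BCL6, at its log2 difference between the mean of both SHP2 miRs and control (horizontal axis); filled points passed the limma test at an adjusted p under 0.05, open points did not, bars are list medians, and vertical scatter within a row has no meaning. Medians lie between -0.13 and 0.30, and the 13 genes that passed include KRT10 at 2.44, CASP14 at -1.73 and LTF at 4.88.

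In epidermal differentiation, where PRDM1 is known to act, 5 of 22 genes rose and 1 fell, with a median of 0.30. The suprabasal keratin KRT10 rose by 2.44 (SE 0.18, adjusted p = 0.000223), with 4.84 and 4.64 in control, near the 40th percentile of probe sets, 7.38 and 7.73 on the SHP2 miR1 arrays and 6.56 and 7.04 on the SHP2 miR2 arrays. CASP14, a protease of late epidermal differentiation, fell by 1.73 (SE 0.15, 3.31-fold, adjusted p = 0.000629). It had 7.33 and 6.97 in control, 5.0 and 5.13 on the SHP2 miR1 arrays and 5.82 and 5.73 on the SHP2 miR2 arrays. KRT10 thus lay on the side of BCL6 and CASP14 on that of PRDM1, with SHP2 miR2 between control and SHP2 miR1 in both. SHP2 miR2 minus SHP2 miR1 did not pass for KRT10 (-0.75, limma adjusted p = 0.139) or CASP14 (0.71, limma adjusted p = 0.117).

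The cornified envelope gene SPRR1B rose by 0.99 and the crosslinking enzyme TGM1 by 0.79, besides NOTCH1. OVOL1, a transcription factor named after its value was seen, rose by 0.65. KRT1, the usual partner of KRT10, had 0.06, involucrin (IVL) 0.16, filaggrin (FLG) -0.01 and the regulator KLF4 0.42, and none of them passed. SPRR1B, TGM1 and OVOL1 missed the threshold without either control, at up to 0.0868, 0.165 and 0.275, and OVOL1 also without 3 of the 4 SHP2 miR arrays.

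Among 19 lactation and STAT5 target genes 1 rose (5.26%, against 1.53% of all genes) and 0 fell, with a median of 0.12. That gene was LTF, the milk protein lactoferrin, at 4.62 and 4.60 in control, 10.48 and 10.31 on the SHP2 miR1 arrays and 8.98 and 8.19 on the SHP2 miR2 arrays. Its average difference was 4.88 (SE 0.20, adjusted p = 2.84e-05), the largest in the 9 lists. Its control values lay below the 40th percentile of probe sets, 4.76, so the size of the difference rests on a dim control level. The casein genes CSN2, CSN1S1 and CSN3 had 0.39, 0.01 and -0.07, and the STAT5 targets CISH and SOCS2, which BCL6 is also reported to repress, had 0.09 and -0.16. None of these 5 passed.

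The genes next to each member on its chromosome were compared in the same way. PRDM1 is on chromosome 6 and BCL6 on chromosome 3. Of the 5 measured genes on each side of PRDM1, 9 of 10 had values below 0, 5 lay below both controls on all 4 arrays (13.6% of all genes did), and 1 passed the test (2.67% of all genes did in this direction). The median difference was -0.34. POPDC3, a Popeye domain protein, fell by 0.76 (SE 0.13, adjusted p = 0.0151), with 7.03 and 7.25 in control, 6.10 and 6.22 on the SHP2 miR1 arrays and 6.57 and 6.62 on the SHP2 miR2 arrays. ATG5, the autophagy gene next to PRDM1, had -0.65 (SE 0.17, adjusted p = 0.0662), and PREP on the other side had -0.15 (adjusted p = 0.569). The POPDC3 call was lost without either control or SHP2 miR2 replicate 1, at up to 0.186.

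Around BCL6 the 10 neighbours were divided, with 4 values below 0 and a median of 0.22. Of these, RTP1, MASP1, RTP4, RTP2, FLJ42393, MIR28 and TPRG1 were dim, with a mean over the arrays at or below 4.76. The division and the median therefore rest mostly on dim genes. Beside PRDM1 only LIN28B was dim. P3H2, a collagen prolyl hydroxylase, fell by 0.72 (SE 0.13, adjusted p = 0.0179), with 9.35 and 9.34 in control, 8.14 and 8.17 on the SHP2 miR1 arrays and 9.21 and 8.98 on the SHP2 miR2 arrays. Of all genes, 2.67% passed in this direction. No neighbour of BCL6 rose past the threshold. RTP2 and LPP, next to BCL6, had 0.31 (adjusted p = 0.243) and -0.24 (adjusted p = 0.332). The P3H2 call was lost without either control (up to 0.162) or SHP2 miR1 replicate 1 (0.0517).

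**Figure D4:**
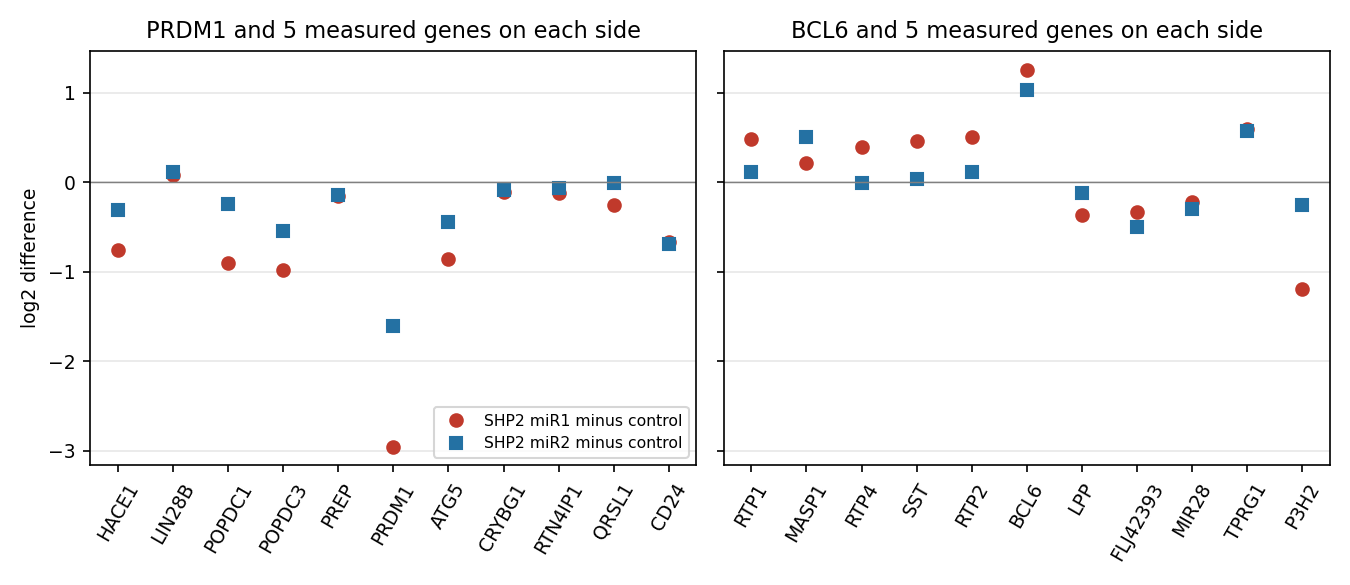
Log2 difference from control (vertical axis) of PRDM1, BCL6 and the 5 measured genes on each side in chromosome order (horizontal axis, places not to scale); circles are SHP2 miR1 and squares SHP2 miR2, and both share the control arrays. PRDM1, at -2.95 and -1.61, lies below all 10 neighbours, and BCL6, at 1.26 and 1.03, above all of its own. Most neighbours of BCL6 are dim genes, and LIN28B beside PRDM1 is too.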

How the data were processed

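Each of the 6 arrays measured RNA of one culture group. The deposited values are the authors' log2 probe set values, base 2 being inferred from their range. R 2.10 and oligo 1.8 were used, per the submitters' processing notes. How background was corrected, and how arrays were normalized and summarised on which build, is not given in the sources used here, nor are scan dates. Precision is limited by having 2 arrays a group.

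Of 28869 probe sets, 19310 had 1 gene symbol, 1752 several and 7807 none. Only the first were named, and 19279 of them matched RefSeq by gene identifier. The probe set with the highest mean was kept, leaving 18377 genes. Listed genes without such a probe set were not analysed here.

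All 6 arrays were fitted with 3 groups in limma 3.58.1 (R 4.3.3, eBayes, 3 residual and 6.10 prior degrees of freedom). P-values were two-sided and Benjamini-Hochberg adjusted over all genes, with a threshold of 0.05. On simulated data the fit recovered 64% of 100 genes changed by 1 log2 unit for the average of both SHP2 miRs. Of 100 genes changed by 2 log2 units it recovered 94%, with 5 unchanged genes called. Recovery depends on how many genes change, and the fit of the real data called 771. The simulated shares therefore need not hold for the real data. Promoter motifs were counted over distinct RefSeq windows.

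Members and lists were chosen with earlier results of these data known. Named genes were the members and PTPN11, up to 4 passing genes of smallest p per list (or up to 2 as values), the 5 most alike genes and 5 neighbours on each side of each member. Further list members were named as values, after these were seen, to say what a list holds. Alternatives were a mean-variance trend, leaving out dim genes (mean at or below the 40th percentile), quantile normalization, centring of arrays on their medians, the mean of a gene's probe sets, a replicate block, a fit of only the groups compared, and leave-one-out fits over arrays, in which a lone array is assumed to vary like the other groups.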

Additional observations from a re-analysis of the deposited data

Results flagged for a closer look

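PRDM1, chosen for lying below control with both SHP2 miRs, differed between them by 1.35 for SHP2 miR2 minus SHP2 miR1 (limma adjusted p = 0.0379). The call was lost with any array left out, with the replicate block and with only the groups compared. PRDM1 was higher on both SHP2 miR2 arrays than on both SHP2 miR1 arrays. How many of all genes separate the SHP2 miRs in this way was not counted. LTF differed between them too, by -1.81 (limma adjusted p = 0.0304), with both SHP2 miR2 arrays below both SHP2 miR1 arrays. The LTF call was lost with any array left out, at adjusted p-values of 0.0559 to 0.116, and with only the groups compared (0.0885). Groups of 2 arrays are too small for a check of single arrays that stand apart.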

How the results depend on the processing

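The average differences of PRDM1 and BCL6 from control were -2.46 to -2.11 and 0.84 to 1.45 under the 12 alternatives. The ends of both ranges came from leaving out a control. Their direction was fixed by the choice of members, and leaving out an array could not reverse it. The trend, leaving out dim genes, the mean of probe sets and the replicate block cannot move these values. PRDM1 between the SHP2 miRs was 1.35 with the replicate block and with only the groups compared, where it missed the threshold, and 1.17 to 1.52 with an array left out. BCL6 between the SHP2 miRs stayed at -0.31 to -0.14 and never passed. Genes called on average, 771, became 1793 with a mean-variance trend and 108 to 512 with an array left out. Genes called between the SHP2 miRs, 35, became 446 with the trend, 95 without dim genes, 69 with centring, 12 with the replicate block, 12 with only the groups compared and 0 to 15 with an array left out. The 0, in limma without SHP2 miR2 replicate 1, stood beside 2671 genes at an unadjusted p under 0.05. The circuit genes called, 13, became 22 with the trend and 3 to 9 with an array left out. The trend also called 2 of the corepressors, 3 genes upstream of BCL6 and 1 gene reported as repressed by PRDM1, lists with 0 calls otherwise, save that the last 2 had 1 each without dim genes and the genes upstream of BCL6 1 with quantile normalization. Of the 13, 10 lost the call without some array and 0 changed direction. Of 26 named genes that did not pass, 7 passed under some alternative and 5, all neighbours, changed sign. LIN28B was -0.0108 with quantile normalization. With an array left out, LIN28B lay at -0.0465 to 0.24, MIR28 at -0.53 to 0.0158, CRYBG1 at -0.28 to 0.0941, RTN4IP1 at -0.29 to 0.11 and QRSL1 at -0.31 to 0.0592. The cause of these changes was not tested, apart from the fewer arrays or genes in the fit. No label says whether same-numbered arrays share more than a number, and such a link was not tested. Their deviations correlated at 0.07, 0.14 and 0.01 across genes. The block gave 13 circuit genes and 817 genes in all.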
